A study of Mus musculus with 2 samples.

Results

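Mir122, Mir192, Mir194-1, Mir194-2, Mir215 and Mir204 are 6 of the 2202 microRNA (miRNA) genes counted in whole adrenal glands. They were chosen by name, as genes known from liver and kidney, with earlier results of these data known. The glands came from B6CASTF1/J males at 2 months of age, obtained from The Jackson Laboratory, and small RNA of under 30 nt was sequenced. B6CASTF1/J mice are first-generation hybrids between the common laboratory strain B6 and CAST, an inbred strain of castaneus origin. The labels name no treatment and no altered gene. The series holds 1 group of 2 libraries, from animal 3 (replicate 1) and animal 4 (replicate 2), which the labels call separate replicates although both carry the same donor entry. No liver or kidney library was analysed here, so levels could be set only against other genes of the same libraries and between the animals.

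A miRNA gene is transcribed into a hairpin, from which enzymes release short mature products of the 5′ arm (5p) and the 3′ arm (3p). Bases 2 to 8 of a mature product are its seed, which pairs with target messages. miR-122 is the dominant miRNA of hepatocytes, where it supports cholesterol and lipid metabolism. miR-192, miR-194 and miR-215 are abundant in liver, gut and kidney epithelium, where hepatocyte nuclear factors drive their genes. miR-204 comes from an intron of the channel gene Trpm3 and is known from kidney, retinal pigment epithelium and choroid plexus. In the body the adrenal gland lies beside the kidney, and the right gland lies close to the liver.

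The mature products below show which of these genes share a seed and which cannot be told apart by their reads. They are RefSeq sequences of build GRCm38.p6, written 5′ to 3′ with the seed in capitals, for the 5 genes that matched the RefSeq table and for Mir211, the close relative of Mir204.
miR-192-5p: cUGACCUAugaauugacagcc
miR-215-5p: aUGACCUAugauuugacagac
miR-194-5p: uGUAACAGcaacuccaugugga
miR-194-1-3p: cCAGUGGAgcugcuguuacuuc
miR-194-2-3p: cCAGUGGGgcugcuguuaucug
miR-204-5p: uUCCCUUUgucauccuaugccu
miR-211-5p: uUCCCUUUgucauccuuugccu

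miR-192-5p and miR-215-5p had the same seed, UGACCUA, which no other gene of the 1058 in the RefSeq table carried. They were identical at 18 of 21 bases and differed by C1A, A12U and C20A, counted from the 5′ end with the miR-192 base first. miR-194-5p was identical at Mir194-1 and Mir194-2 over all 22 bases. The 3p products of these genes differed by A8G, C19U, U20C and C22G, the Mir194-1 base first, and A8G falls in the seed. miR-204-5p differed from miR-211-5p by A17U alone, outside the seed UCCCUUU. Of the 18-base windows in the annotated hairpins, 5 of 50 in Mir194-1 and 5 of 69 in Mir194-2 were also found in the other of this pair. Mir122, Mir192, Mir215 and Mir204 shared no such window with another annotated miRNA gene. Reads that aligned to several places were not counted at genes, so the counts of Mir194-1 and Mir194-2 leave out miR-194-5p reads that fit both. The files count reads per gene, and the 5p and 3p products of a gene were not separated.

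The genes lie at 4 places of mm10 (GENCODE M21 annotation), all on the plus strand. Mir122 (chromosome 18, 65248861 to 65248926) was annotated overlapping an exon of AC157910.3, a long non-coding RNA. Mir194-2 (chromosome 19, 6264643 to 6264728) and Mir192 (6264844 to 6264932) lie 115 bases apart, outside other annotated genes. Mir194-1 (chromosome 1, 185313319 to 185313385) and Mir215 (185313581 to 185313692) lie 195 bases apart within 2010103J01Rik, a non-coding RNA annotated as antisense. Mir194-1 is in an intron of it and Mir215 overlaps an exon. On the opposite strand both are in introns of Iars2, the mitochondrial isoleucyl-tRNA synthetase. Mir204 (chromosome 19, 22750605 to 22750672) sits within a Trpm3 intron. Each of the 2 clusters thus pairs a gene with the UGACCUA seed and a miR-194 gene.

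Depth set how well the lower genes could be measured. Animal 3 had 5752428 reads counted at miRNA genes and animal 4 had 3333149. Values are given as CPM, the counts of a gene per 1e6 counts at miRNA genes in its library. A count of 0 allowed up to 0.522 CPM in animal 3 and 0.900 CPM in animal 4, from a limit of 3 counts. A read of under 30 nt spans a mature miRNA, so CPM were not divided by gene length, and the order of the 6 genes was the same per base of annotated gene. Of the 2202 genes, 372 reached 2 CPM in both libraries, which was taken as detected. Intervals are exact Clopper-Pearson intervals at 95% and cover counting error only, since the labels name no molecular identifiers and reads may be copies of 1 molecule.

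Mir122 was the highest of the 6 genes in both animals. It had 3970 counts, 690 CPM (669 to 712), in animal 3 and 4438 counts, 1331 CPM (1293 to 1371), in animal 4. Its mean was 1011 ± 453 CPM (SD, n = 2), and it ranked 88 of 2202 genes in animal 3 and 68 in animal 4. Its share of the miRNA counts was 0.0690% in animal 3 and 0.133% in animal 4, and the intervals of the 2 libraries did not overlap. In a bulk library, fewer cells of a type and less RNA per cell cannot be told apart.

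Mir204 came next, with 246 counts, 42.8 CPM (37.6 to 48.5), in animal 3 and 239 counts, 71.7 CPM (62.9 to 81.4), in animal 4. Mir122 exceeded it 16.1-fold (14.2 to 18.4) in animal 3 and 18.6-fold (16.3 to 21.2) in animal 4. The gap was wider than counting error in both libraries, and the intervals of the folds overlapped. Mir204 averaged 57.2 ± 20.5 CPM (SD, n = 2). Mir211, its relative in an intron of Trpm1, a channel gene of pigment cells and retina, had 0 counts in both libraries. Mir7670, the remaining gene of the RefSeq table with a product of the UCCCUUU seed, also had 0 counts in both. Mir204 was thus the only gene of this seed with counts among the 1058 in that table. Among genes that share a seed with a 3p product of a member, Mir7055 and Mir7684 had 0 counts in both libraries and Mir6926 had 0 in animal 3 and 1 in animal 4.

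Mir194-2 and Mir192, the cluster on chromosome 19, were close to each other. Mir194-2 had 164 counts, 28.5 CPM (24.3 to 33.2), in animal 3 and 98 counts, 29.4 CPM (23.9 to 35.8), in animal 4. Mir192 had 118 counts, 20.5 CPM (17.0 to 24.6), in animal 3 and 115 counts, 34.5 CPM (28.5 to 41.4), in animal 4. By counting, Mir194-2 was the higher in animal 3, while their order was not settled in animal 4. Mir192 stood at 0.720-fold of Mir194-2 (0.563 to 0.917) in animal 3 and at 1.17-fold (0.888 to 1.55) in animal 4. Since miR-194-5p reads that fit both copies are left out, the level of Mir194-2 and this order are uncertain. Mir204 exceeded Mir194-2 1.5-fold (1.23 to 1.84) in animal 3 and 2.44-fold (1.92 to 3.12) in animal 4. For the same reason this fold may be too high, by an unknown amount.

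Mir215 and Mir194-1, the cluster on chromosome 1, had the lowest counts. Mir215 had 28 counts, 4.87 CPM (3.23 to 7.03), in animal 3 and 12 counts, 3.60 CPM (1.86 to 6.29), in animal 4. Mir194-1 had 4 counts, 0.695 CPM (0.189 to 1.78), in animal 3 and 5 counts, 1.5 CPM (0.487 to 3.50), in animal 4, and it is the only member not detected by the 2 CPM limit. Since miR-194-5p reads that fit both copies are left out, the level of Mir194-1 and its place below that limit are uncertain. Mir215 exceeded it 7.00-fold (2.45 to 27.5) in animal 3 and 2.40-fold (0.787 to 8.70) in animal 4, so their order was not settled in animal 4. The cluster on chromosome 19 exceeded that on chromosome 1 8.81-fold (6.10 to 13.1) in animal 3 and 12.5-fold (7.64 to 21.9) in animal 4. The folds between the clusters and of Mir215 over Mir194-1 leave out miR-194-5p reads that fit both copies. They are thus uncertain beyond counting error. Among the products with the UGACCUA seed, Mir192 exceeded Mir215 4.21-fold (2.77 to 6.61) in animal 3 and 9.58-fold (5.28 to 19.1) in animal 4. Neither of these genes shares an 18-base window with another miRNA gene, so this fold is not touched by the miR-194 copies.

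**Figure D1:**
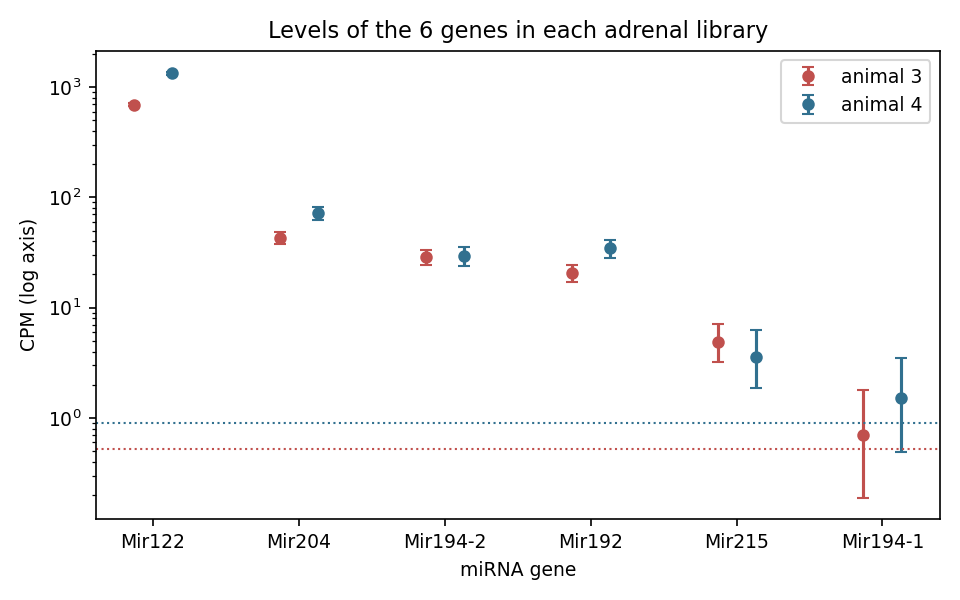
Level of each of the 6 genes in CPM on a log axis, with a point for each library and its exact Clopper-Pearson interval as the bar; the dotted lines mark the level that a count of 0 allows in the library of that colour. Mir122 stands at 690 CPM in animal 3 and 1331 CPM in animal 4, Mir204, Mir194-2 and Mir192 lie between 20.5 and 71.7 CPM, and the intervals of Mir194-1 reach below the dotted lines.

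The 5 members other than Mir122 are called the kidney genes here, although miR-192, miR-194 and miR-215 are also known from liver and gut. miR-204 is also known from retinal pigment epithelium and choroid plexus. Their sum is thus not a measure of kidney alone. It was 560 counts, 97.4 CPM, in animal 3 and 469 counts, 141 CPM, in animal 4. Mir122 exceeded this sum 7.09-fold (6.49 to 7.76) in animal 3 and 9.46-fold (8.60 to 10.4) in animal 4, which does not depend on the denominator of CPM. The sum leaves out miR-194-5p reads that fit both copies, so it may be too low and this fold too high, by an unknown amount. Mir122 exceeded Mir192, which hepatocytes also express, 33.6-fold (28.0 to 40.8) in animal 3 and 38.6-fold (32.1 to 46.9) in animal 4. Mir204 exceeded Mir192 2.08-fold in each library (1.67 to 2.62 in animal 3 and 1.66 to 2.62 in animal 4).

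Between the animals, 3 of the 5 genes tested were called lower in animal 3, Mir122, Mir204 and Mir192, against 28.3% of all 389 genes tested called lower and 59.1% called in either direction. All 3 differences were smaller than 2-fold. Log2 ratios were taken as animal 3 over animal 4 with TMM scaling, and a two-sided exact binomial test asked whether a gene's reads split between the libraries as their effective sizes predict. The test was adjusted by Benjamini-Hochberg over the 389 genes with 10 or more counts in mean, a filter that 5 of the 6 genes passed and Mir194-1 did not. It compares these 2 libraries and not conditions, with no replicate check on either side. Mir122 had a log2 ratio of -0.75 (counting SE 0.03, interval -0.81 to -0.69), a 0.595-fold level in animal 3, with an adjusted p of 1.12e-123 by the exact binomial test. Of the 389 genes, 13.1% had a lower log2 ratio than Mir122. Mir204 had a log2 ratio of -0.55 (SE 0.13, interval -0.81 to -0.28; exact binomial test, adjusted p = 7.89e-05), and Mir192 one of -0.55 (SE 0.19, interval -0.93 to -0.17; adjusted p = 0.00732).

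Mir194-2 had a log2 ratio of 0.15 (interval -0.21 to 0.53; exact binomial test, adjusted p = 0.521), which turned to -0.047 by total counts. Mir215 had 0.60 (interval -0.39 to 1.74; exact binomial test, adjusted p = 0.359). Both intervals include 0, and that of Mir215 also includes a difference larger in size than that of Mir122. The clustered genes Mir192 and Mir194-2 thus had log2 ratios of opposite sign after TMM scaling but not by total counts, and after TMM scaling their intervals overlapped between -0.21 and -0.17.

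The calls have to be read against the whole table. In either direction the members' share of calls, 3 of 5, was near the 59.1% of all genes. None of the 5 members was past 2-fold in size, against 14.4% of the 389 genes. The median log2 ratio was -0.55 over the 5 members and 0.01 over the 389 genes. TMM scaling had raised all ratios by 0.20 against total counts, and by total counts the same 3 members were called lower. Over all 389 genes, 170 were lower in animal 3 and 85 higher by total counts, where TMM scaling gave 110 lower and 120 higher. When edgeR's exact test took in a common dispersion estimated from these libraries (a biological coefficient of variation of 0.361), it called 0 of the 5 members (0 also at an unadjusted p under 0.05) and 4 of the 389 genes (Mir451a, Mir144, Mir499 and Gm26117, of which Gm26117 is in none of the lists used here). That dispersion comes from the same difference between 1 library and 1 library that was then tested, so calls missed under it say nothing about the 3 members beyond the setting used.

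**Figure D2:**
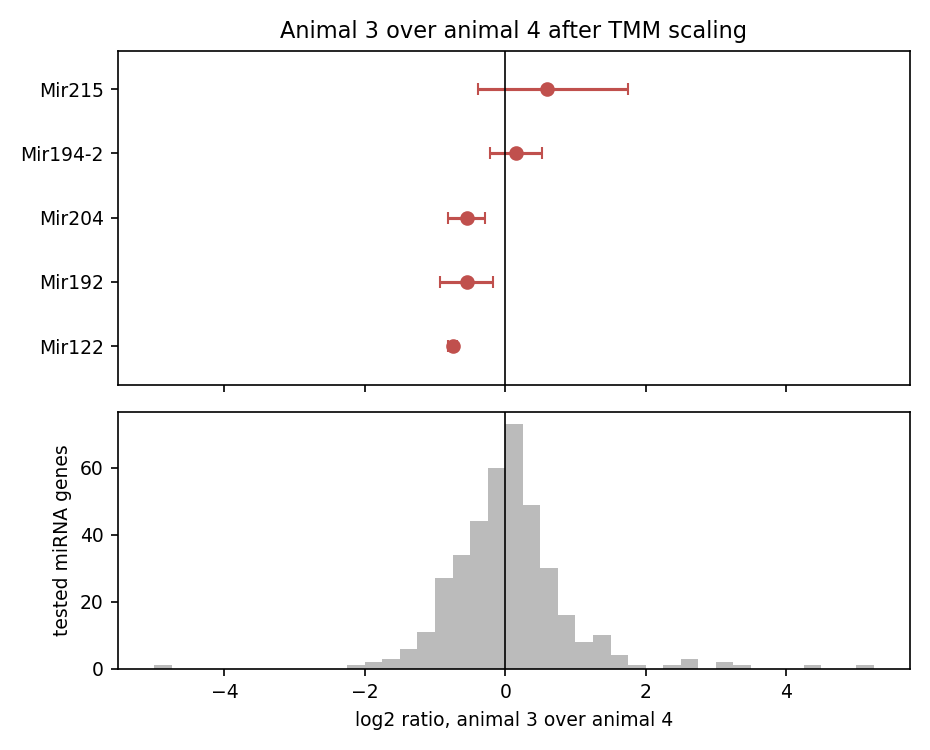
Log2 ratio of animal 3 over animal 4 after TMM scaling, for the 5 tested liver and kidney genes with their exact intervals (upper panel) and as a histogram of all 389 tested miRNA genes (lower panel). Mir122, Mir192 and Mir204 lie left of 0 with intervals that exclude it, the intervals of Mir194-2 and Mir215 include 0, and all 5 lie within the body of the histogram.

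**Figure D3:**
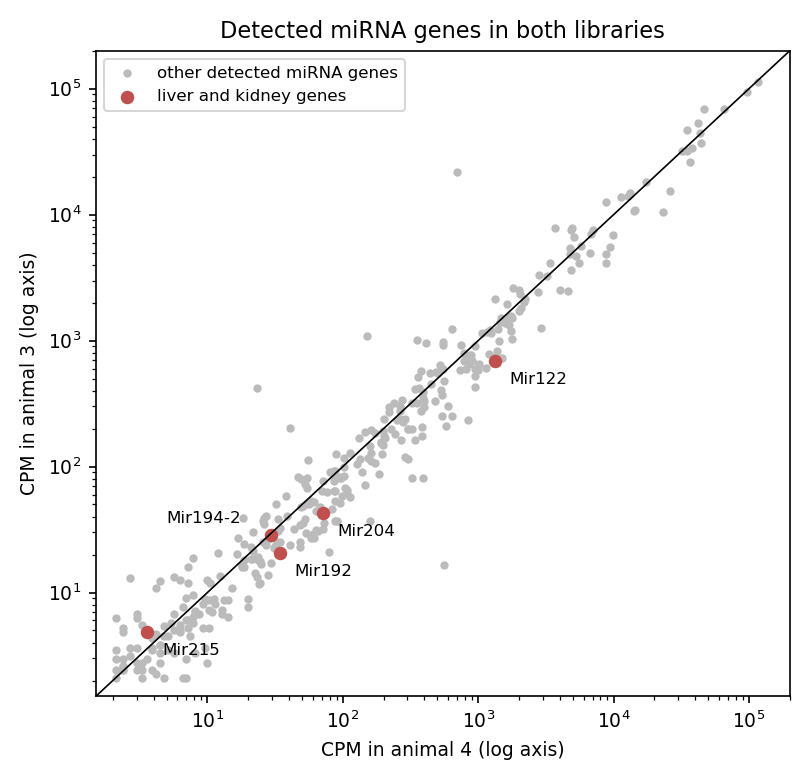
CPM of the 372 detected miRNA genes in animal 3 against animal 4, both on log axes, with equal levels on the line and the 5 detected liver and kidney genes in red. Mir122, Mir204 and Mir192 lie below the line, among grey points of like level, and Mir194-2 lies on it.

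Other genes known from liver or kidney ranged from no counts to levels far above Mir122. Mir802, which is known from liver, pancreas and kidney, had 0 counts in both libraries. Mir148a, a miRNA abundant in liver and found in many tissues, had 208 CPM in animal 3 and 387 CPM in animal 4, a log2 ratio of -0.70 (SE 0.06; exact binomial test, adjusted p = 7.70e-33). Mir122 exceeded Mir148a 3.32-fold (3.12 to 3.55) in animal 3 and 3.44-fold (3.23 to 3.66) in animal 4. The Hox-cluster genes Mir10a and Mir10b, which kidney and many other tissues hold, were far higher, at 32113 and 14898 CPM in animal 3 and 34961 and 13296 CPM in animal 4. Mir196b, also of a Hox cluster, had 318 CPM in animal 3 and 239 CPM in animal 4. Of the 8 genes in this list (Mir148a, Mir802, Mir211, Mir196a-1, Mir196a-2, Mir196b, Mir10a and Mir10b), 6 were tested, of which 3 were called higher and 1 lower in animal 3. With total counts as the scaling, 2 were called in each direction. The median log2 ratio of the 6 was 0.11.

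The miR-200 family, which marks epithelia including kidney tubules, was detected with all 5 genes and summed to 58.2 CPM in animal 3 and 50.7 CPM in animal 4. Mir200c held most of it, with 38.8 CPM in animal 3 and 26.4 CPM in animal 4, and Mir429 had 6.08 and 6.90 CPM. The kidney sum of Mir192, Mir194-1, Mir194-2, Mir215 and Mir204 exceeded the family 1.67-fold (1.46 to 1.92) in animal 3 and 2.78-fold (2.32 to 3.33) in animal 4. This sum leaves out miR-194-5p reads that fit both copies, so the fold may be too low. Of the 5 genes only Mir200c was called between the libraries, higher in animal 3 (exact binomial test, adjusted p = 5.05e-05), and the family's median log2 ratio was 0.01. Genes of acinar pancreas were at or near 0. Mir216a, Mir216b and Mir216c had 0 counts in both libraries, and Mir217 had 3 counts in animal 3 and 1 in animal 4.

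Genes known from the gland's own cells were all detected. The 4 genes of neuroendocrine cells, which the adrenal medulla holds, summed to 72802 CPM in animal 3 and 51447 CPM in animal 4, led by Mir375 and Mir7b, with 2 called higher and 1 lower in animal 3, and by total counts 2 in each direction. Mir375 exceeded Mir122 99.7-fold (96.6 to 103) in animal 3 and 34.7-fold (33.7 to 35.8) in animal 4. Mir132, Mir212 and Mir202, reported from steroid-producing tissue, were all detected and summed to 1461 CPM in animal 3 and 1550 CPM in animal 4. Mir212 had 36.7 CPM in animal 3 and 87.6 CPM in animal 4, a log2 ratio of -1.06. In this list 1 gene was called higher and 1 lower in animal 3, and by total counts 0 higher and 1 lower. Mir132 alone exceeded Mir122 2.05-fold (1.97 to 2.13) in animal 3 and 1.09-fold (1.04 to 1.13) in animal 4.

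Genes of further tissues also differed between the animals. The 3 erythroid genes, led by Mir451a and Mir144, took 22813 CPM in animal 3 and 901 CPM in animal 4, and all 3 were called higher in animal 3. The muscle list summed to 719 CPM in animal 3 and 454 CPM in animal 4, with 3 of 9 genes detected and Mir1a-1 and Mir133a-2 at 0 in both libraries. Its detected genes changed order between the animals. Mir499 had 423 CPM in animal 3 and 23.1 CPM in animal 4, and Mir208b had 204 CPM in animal 3 and 40.8 CPM in animal 4. Mir206, known from skeletal muscle, was lower in animal 3, at 81.7 CPM, against 389 CPM in animal 4 (log2 ratio -2.05). Of the 4 tested genes of this list 3 were called higher and 1 lower in animal 3. The white blood cell list had all 4 genes detected, led by Mir150 and Mir142, and summed to 1434 CPM in animal 3 and 1777 CPM in animal 4. Of these, 2 were called higher and 2 lower in animal 3, and by total counts 0 higher and 2 lower. Mir223, a miRNA of myeloid cells, had 36.7 CPM in animal 3 and 159 CPM in animal 4 (log2 ratio -1.92). The brown adipose list had all 4 detected, led by Mir455 and Mir193b, at 1867 CPM in animal 3 and 1970 CPM in animal 4. All 4 were called higher in animal 3 with TMM scaling (median log2 ratio 0.46), although the sum in CPM was lower there, and by total counts 2 were called higher and 1 lower. The neuronal list had 3 of 9 detected, led by Mir137 and Mir138-1, at 516 CPM in animal 3 and 639 CPM in animal 4, with all 3 genes of Mir124a at 0, and 1 of its genes was called in each direction, by total counts 0 higher and 1 lower. Copied genes of these lists leave out reads that fit several places. The erythroid genes, Mir499 and Mir208b thus differed in the direction opposite to Mir122, Mir192 and Mir204, and Mir223, Mir206 and Mir212 in the same direction. These are single genes, and the lists that hold Mir223, Mir206 and Mir212 also had genes called higher in animal 3 with TMM scaling. The part of such tissues in the members' differences was not tested.

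**Figure D4:**
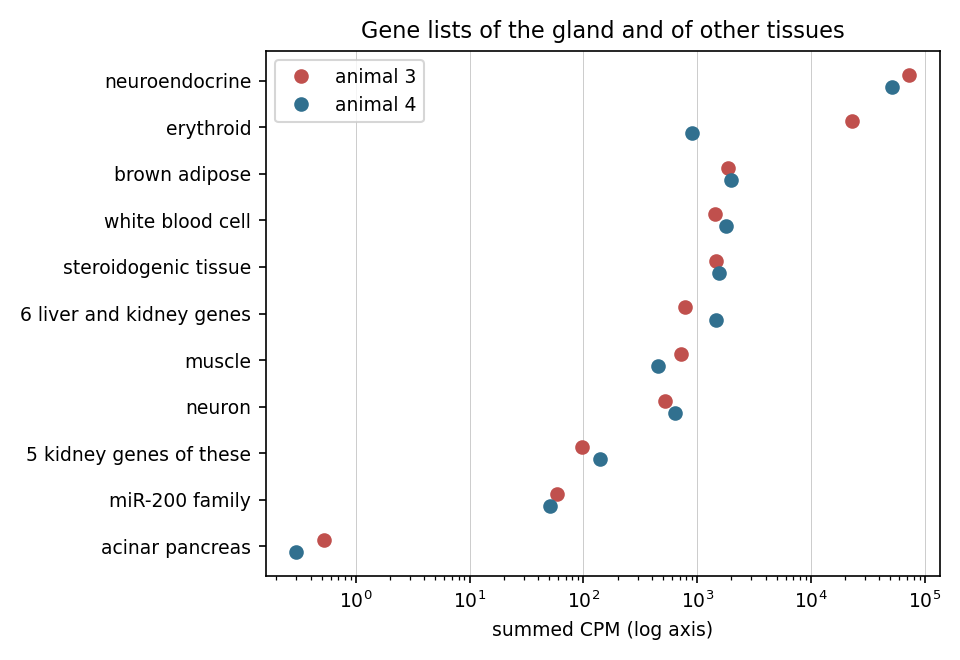
Summed CPM of gene lists in both libraries on a log axis, highest list at the top. The list of 8 other genes known from liver or kidney is not drawn. It summed to 47743 CPM in animal 3 and 49099 CPM in animal 4. The 6 liver and kidney genes sum to 787 CPM in animal 3 and 1472 CPM in animal 4, below the lists of the gland's own cells in each library, and the erythroid list has the widest gap between the libraries.

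The genes closest in level to each member were found by Euclidean distance in log2(CPM + 0.5) over the 2 libraries, among 371 other detected genes. Closest to Mir122 were Mir27a, with 759 CPM in animal 3 and 1343 CPM in animal 4 (distance 0.14), and Mir214, with 734 and 1504 CPM (0.20). Closest to Mir204 were Mir181a-1 (0.18) and Mir148b (0.19), and closest to Mir192 were Mir410 (0.20) and Mir6516 (0.23). Mir29b-2, a copied gene, lay closest to Mir194-2 with 28.3 CPM in animal 3 and 29.1 CPM in animal 4 (0.02), before n-TSaga9 (0.11). Mir7689 (0.14) and Mir8101 (0.18) lay closest to Mir215. With 2 libraries such nearness describes level and the direction between these animals only.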

How the data were processed

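The authors deposited counts per miRNA gene for each library, mapped to mm10 with GENCODE M21 per the file headers. Neither the aligner nor the trimming is given in the sources used here. Each file has 3 count columns, and the column for the gene's own strand was used. The 4 leading rows name no gene and were left out. Of all reads, 66.2% in animal 3 and 69.0% in animal 4 fell there, among them reads aligned to several places (26.2% in animal 3 and 28.8% in animal 4). All 2202 identifiers matched GENCODE M21. Mature sequences came from RefSeq (GRCm38.p6). Its coordinates equalled GENCODE's for the 5 of 6 members with an entry in the RefSeq table used, and Mir122 had no entry.

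The labels give 1 group of 2 libraries, so groups were not compared. The libraries were compared gene by gene with an exact binomial test on TMM effective library sizes, with 0.5 counts added for log2 ratios and a threshold of 0.05. The members and lists were chosen with earlier results of these data known. Genes named are the members, genes sharing a seed, the 2 nearest genes in level, and up to 2 leading genes of each list. Mir148a, Mir802, Mir211, Mir196b, Mir1a-1, Mir133a-2, Mir124a, Mir208b, Mir206, Mir223, Mir212, Gm26117 and the acinar genes were also named, with their values already known. TMM factors came from edgeR 4.0.16 and alternative size factors from DESeq2 1.42.0, under R 4.3.3. Intervals and figures were made with SciPy 1.17.1 and matplotlib 3.10.9 under Python 3.11.15.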

Additional observations from a re-analysis of the deposited data

Results flagged for a closer look

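Mir122 had 5 reads on the strand opposite to its gene in animal 3, above the 3 counts that a count of 0 allows, and 1 in animal 4, against 3970 and 4438 on its own strand. The opposite strand was outside the measurement used. These reads were 0.126% of the reads at Mir122 in animal 3 and 0.0225% in animal 4. None of the other 5 genes had a read on the opposite strand in either library.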

How the results depend on the processing

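The level of Mir122 (1011 CPM in mean) was 471 per 1e6 aligned reads, 323 per 1e6 of all reads and 2374 when the 10 most abundant genes were left out of the total. The kidney sum (119 CPM in mean) was 56.0, 38.3 and 281 under the same 3 choices, and 61.8 without Mir204. Without Mir204 the fold of Mir122 over the kidney sum was 16.0, against a mean of 8.28. Leaving out 1 library gave 690 to 1331 CPM for Mir122, 97.4 to 141 CPM for the kidney sum and 7.09 to 9.46 for the fold. Unstranded counts, and counts per base for the fold, moved these by less than the SD. The same 3 members were called under DESeq2 size factors, total counts, unstranded counts and both other filters; with edgeR's common dispersion 0 members and 4 genes were called, against 3 and 230. Genes past 2-fold numbered 253 without a filter and 27 at 50 or more counts in mean, against 56. The log2 ratio of Mir194-2 turned to -0.047 by total counts. No paired analysis was possible because all samples belong to 1 group. At 28 and 12 counts the interval of the log2 ratio of Mir215 ran from -0.39 to 1.74, which includes no difference as well as one past 2-fold towards animal 3.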
